A study of Mus musculus with 13 samples.

Results

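The cells that enter the spinal cord from the blood at the peak of experimental autoimmune encephalomyelitis (EAE) were compared with the microglia that live there, by single-cell RNA sequencing. EAE is a mouse model of multiple sclerosis in which an immune attack strips myelin from the spinal cord. Members were taken from the deposited table of cells by 3 labels: disease stage peak, sort gate, and cell class. Cells of the classes Monocyte and Macrophage in the infiltrating gate made up 1 side, with 1709 cells in library a and 357 in library b. Cells of the class Microglia in the resident gate made up the other, with 486 cells in library a and 704 in library b. Together these were 3256 of the 22148 cells of the series. All libraries came from the line Cx3cr1YFPCreERT2:R26tdTomato, controls included. In this line the Cx3cr1 locus drives both a yellow fluorescent protein and a tamoxifen-inducible Cre recombinase that switches on tdTomato, so resident cells labelled earlier can be sorted apart from cells that arrived later. The other groups used here were microglia of the resident gate in controls without EAE (3 libraries) and in chronic EAE (3 libraries), and monocytes and macrophages of the infiltrating gate in chronic EAE (3 libraries). Age, sex, tamoxifen dose, the immunisation and the number of animals behind a library are not given in the sources used here. The labels call libraries of a group biological replicates. Libraries are lettered here as names only.

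Microglia settle in the central nervous system in the embryo, renew themselves there, and depend on TGF-beta and CSF1 receptor signals for a gene programme that includes Sall1, P2ry12 and Tmem119. Monocytes are made in bone marrow, follow the chemokine CCL2 through its receptor CCR2 out of the blood, and mature in inflamed tissue into macrophages that lose the monocyte genes and take up lipid, antigen and debris. In EAE both populations meet in the same lesions, and each can present antigen, release cytokines and produce reactive oxygen species. The title of the series names mitochondrial reverse electron transport, a reaction in which electrons flow backward into complex I of the respiratory chain and give rise to reactive oxygen species.

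The member cells held 20256465 and 4193141 unique molecular identifiers (UMIs, each standing for 1 captured RNA molecule) in infiltrating libraries a and b, and 4196375 and 6332115 in microglial libraries a and b. The median UMI count per cell was 11414 and 11075 for infiltrating cells and 8446.5 and 8521 for microglia. Median mitochondrial content was 1.68% and 2.55% in infiltrating libraries and 2.63% and 2.27% in microglial ones. Infiltrating a was sequenced in another pool than the other 3, so the comparison without it is the comparison within 1 pool. Infiltrating b and microglia a also share a batch date. No cell was marked as a doublet in the deposited table, and 2 cell barcodes occurred in more than 1 peak library. The sources used here do not say how classes were assigned, and classes of this kind rest on the expression of marker genes. Counts for class markers are therefore also given over all cells of each gate, which the sort alone defines.

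Gene values below are TMM-scaled CPM, the summed UMI counts of a library's member cells scaled to a fixed total and corrected for composition, and fold changes are infiltrating minus microglia on the log2 scale with their standard error (SE). Of 11479 genes tested, 1600 (13.9%) were higher in infiltrating cells and 1834 (16%) were lower at a Benjamini-Hochberg adjusted p under 0.05 in edgeR's quasi-likelihood test, and the median fold change was -0.05. Scaling by library size alone moved that median to -0.36 and gave 1057 higher and 2492 lower, so that 29.8% of the calls were higher where the TMM-scaled fit gave 46.6%. Over all cells of each gate, 1103 genes were higher and 1117 lower. Without infiltrating a the counts were 840 and 861, and without microglia a 785 and 1058. With only infiltrating b and microglia a, the pair of 1 batch date, 470 genes were higher and 547 lower.

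**Figure D1:**
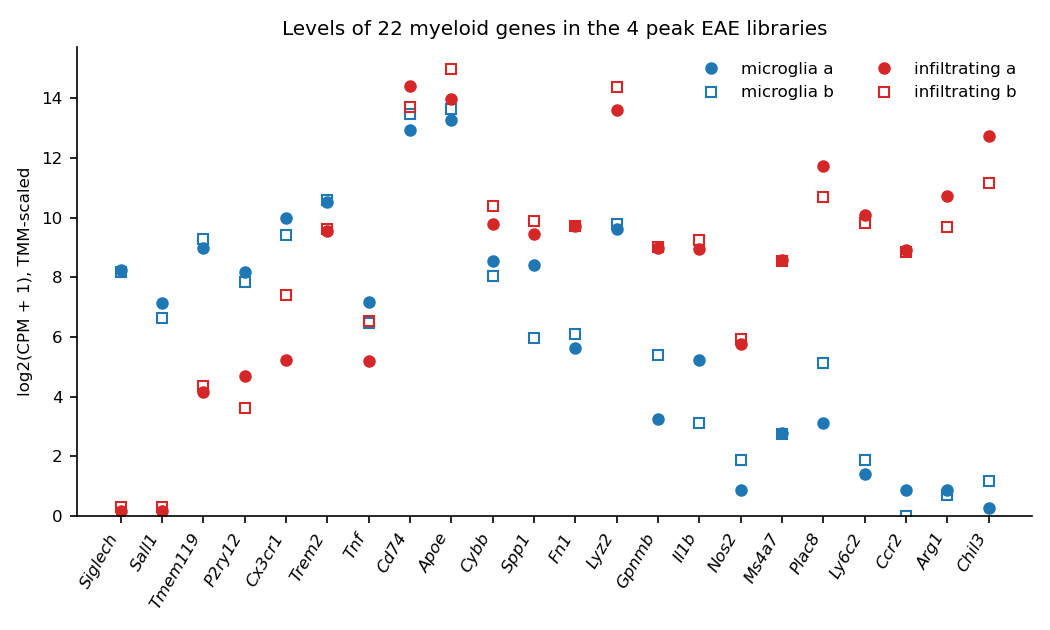
Level of 22 myeloid genes in each peak library, as log2(CPM + 1) after TMM scaling (vertical axis), with genes ordered by fold change. Circles and squares are libraries a and b, blue for microglia and red for infiltrating cells. Siglech, Sall1, Tmem119 and P2ry12 lie at the left with both microglial libraries above both infiltrating ones. Chil3, Arg1, Ccr2 and Ly6c2 lie at the right with the reverse order.

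Genes that define resting microglia were mostly lower in infiltrating cells. P2ry12, the ADP receptor that guides microglial processes (chr3:59216272-59262871, GRCm38), stood at 291 and 228 CPM in microglia and 25.0 and 11.2 CPM in infiltrating cells (log2 fold change -3.81 ± 0.49, adjusted p = 7.37e-05). For Tmem119, a membrane protein used to mark microglia (chr5:113793729-113800516), the microglial libraries held 509.7 and 627 CPM and the infiltrating ones 16.8 and 19.5 (log2 fold change -4.97 ± 0.63, adjusted p = 6.07e-05). In both genes the lower microglial library was far above the higher infiltrating one. Siglech, a sialic acid receptor, had 3293 UMIs in microglia and 3 in infiltrating cells, a ratio of 1951 (exact 95% interval 667 to 9468, which covers counting error only). With every cell of each gate counted, its log2 fold change was -6.24. Slc2a5, the fructose transporter, had 314 UMIs in microglia and 0 in infiltrating cells, so it was at least 186-fold lower there, taking 3 counts over the group as the floor. Gpr34, Sparc, Crybb1, Olfml3 and P2ry13 were lower (log2 fold change -6.21, -7.58, -7.07, -3.34 and -2.92).

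Of the 16 homeostatic genes listed, 15 were lower in infiltrating cells, against 16% of all genes, and the other, Trem2, did not pass the test, with a median fold change of -3.26. Over all cells of each gate 10 of the 16 were lower, with a median of -3.41. Cx3cr1, the fractalkine receptor (chr9:119901616-120069879), was at 1019.8 and 685 CPM in microglia and 36.7 and 169 in infiltrating cells (log2 fold change -3.06 ± 1.06, adjusted p = 0.0415). Its locus drives both reporters of the line, so its level is not independent of the sort. Infiltrating a was the lower of the infiltrating libraries, and T cells of infiltrating b held 139.7 CPM of it, close to the 162 CPM of monocytes there. Without infiltrating a the adjusted p for Cx3cr1 was 0.258, and without microglia a or b it was 0.154 or 0.0659. Csf1r, the receptor for the survival factor CSF1, and Cst3, the protease inhibitor cystatin C, were lower with log2 fold changes of -0.99 and -1.25. With 1 library left out, the adjusted p of Csf1r reached 0.132, without infiltrating b, and was 0.0953 and 0.0766 without microglia a and b, and that of Cst3 ran from 0.0662 to 0.152. Trem2, a lipid receptor of both cell types, stood at 1456 and 1533 CPM in microglia and 751 and 779 in infiltrating cells (log2 fold change -0.97 ± 0.40, adjusted p = 0.0837).

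Several transcription factors of microglial identity were lower in infiltrating cells. Sall1 (chr8:89027235-89044162), the factor that keeps microglia from taking on a macrophage programme, had 140.4 and 97.6 CPM in microglia and 3 UMIs in all in infiltrating cells, a ratio of 769 (exact 95% interval 263 to 3735). Its relative Sall3 was at 91.5 and 65.9 CPM against 0.126 and 0.499 (log2 fold change -8.44 ± 0.84, adjusted p = 8.88e-06). Mef2c and Bhlhe41 were lower (log2 fold change -3.05 and -3.28). In the TGF-beta pathway the inhibitory Smad7 was at 262 and 188 CPM in microglia and 39.4 and 65.1 in infiltrating cells, and the receptor gene Tgfbr2 at 286 and 184 and 37.6 and 76.1. Both were lower in infiltrating cells, although the adjusted p of Tgfbr2 was 0.0527 without infiltrating a. Irf8 was lower (log2 fold change -0.93) and Spi1, which encodes PU.1, was higher by 1.02 (log2). The adjusted p of Irf8 was 0.323 without infiltrating a, 0.243 without microglia a and 0.055 without microglia b. That of Spi1 was 0.417 without infiltrating a and 0.286 without microglia a. With pool as a term the adjusted p was 0.0661 for Irf8 and 0.135 for Spi1, and with library size scaling it was 0.0818 for Spi1. Of the 16 genes of this list 7 were lower and 2 higher, with a median of -1.10, beside 16% lower and 13.9% higher among all genes. Over all cells of each gate 6 were lower and 0 higher. Without infiltrating a 5 were lower and 0 higher, without microglia a 6 and 0, and 6 and 1 without microglia b.

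The 12 lower genes with the smallest p among well expressed genes included Sall1 and 11 that belong to no list. Capn3, a calpain protease, stood at 64.6 and 58.7 CPM in microglia and had 3 UMIs in infiltrating cells, a ratio of 405 (exact 95% interval 138 to 1970.4). The matrix protein gene Npnt stood at 126 and 87.5 CPM in microglia and had 2 UMIs in infiltrating cells, a ratio of 1034 (exact 95% interval 286 to 8546). Lrrc3, the glucose-sensing transcription factor gene Mlxipl, Nav3, the sarcoglycan gene Sgce and the tight junction gene Tjp1 were each under 1 CPM in both infiltrating libraries, against 72.2 and 97.9 CPM of Lrrc3 and 173 and 116 CPM of Nav3 in microglia. Their fold changes ran from -8.65 for Lrrc3 to -6.70 for Mlxipl. The potassium channel gene Kcnk6, the galactosyltransferase gene B4galt4, the crystallin gene Cryba4 and the sorting receptor gene Sort1 were still detected in infiltrating cells. Kcnk6, for instance, was at 86.2 and 73.8 CPM in microglia and 8.46 and 7.24 in infiltrating cells (log2 fold change -3.33 ± 0.24, adjusted p = 7.32e-07).

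Monocyte genes were higher in infiltrating cells. Ccr2 (chr9:124101950-124113557) was at 0.822 and 0 CPM in microglia, 4 UMIs in all, and at 485 and 462 CPM in infiltrating cells (log2 fold change 10.28 ± 0.82, adjusted p = 1.54e-06). Ly6c2, the surface protein that marks inflammatory monocytes (chr15:75108158-75111970), stood at 1.64 and 2.70 CPM in microglia and 1097 and 907 in infiltrating cells (log2 fold change 8.82 ± 1.08, adjusted p = 4.65e-05). Both genes were near absent from microglia. Chil3, a chitinase-like protein, had 9 UMIs in microglia and 118061 in infiltrating cells, at 6877 and 2276 CPM. Plac8 was at 7.61 and 34.1 CPM against 3402 and 1669 (log2 fold change 6.91 ± 1.15, adjusted p = 0.000532). Lyz2, the lysozyme of phagocytes, was present on both sides, at 776 and 891 CPM in microglia and 12585 and 21089 in infiltrating cells (log2 fold change 4.34 ± 0.61, adjusted p = 0.000135). All 22 tested genes of this list were higher, against 13.9% of all genes, with a median of 7.14. With all cells of each gate 18 of 22 were higher and Plac8 and Chil3 missed the threshold, at adjusted p = 0.0528 and 0.0865.

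The 12 higher genes with the smallest p held few classical markers. Gpr141, an orphan receptor, and Gda, the guanine deaminase, had 0 UMIs in microglia and were at least 962-fold and 659-fold higher. These bounds hold for member cells. With every cell of each gate counted, the log2 fold changes of Gpr141 and Gda were 5.66 and 5.84, and that of Ahnak was 4.85. Plbd1, a phospholipase, stood at 402 and 209 CPM, Emb, an adhesion protein, at 401 and 261 CPM and Sirpb1c, a signal-regulatory receptor, at 476 and 165 CPM in infiltrating cells, each under 1 CPM in both microglial libraries. The giant scaffold gene Ahnak, the NAD glycohydrolase gene Cd38, the lectin receptor gene Clec4d and the membrane repair gene Myof were likewise under 1 CPM in microglia. Crip1 stood at 10.1 and 9.68 CPM in microglia against 1106 and 829 (log2 fold change 6.61 ± 0.43, adjusted p = 3.91e-07), S100a11 at 3.70 and 2.86 against 862 and 585, and the sphingomyelinase-like gene Smpdl3b at 2.47 and 4.29 against 139 and 88.1. Within each of these 12 genes the lowest infiltrating library was above the highest microglial one, which the rule for naming them required.

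Factors that act in monocytes followed. Runx3 was at 3.08 and 0.635 CPM in microglia and 102 and 100.3 in infiltrating cells (log2 fold change 5.84 ± 0.47, adjusted p = 1.59e-06), and Klf4, required for the monocyte fate, at 3.70 and 2.38 and 42.2 and 63.6. Nfil3, Ahr and the vitamin D receptor gene Vdr were higher by 3.39, 2.54 and 5.13 (log2). Of 17 tested factors 13 were higher, beside 13.9% of all genes, and none of the others passed the test, with a median of 2.09. Cebpb was higher by 2.09 (log2), and its adjusted p was 0.0529 without infiltrating a and 0.0888 without microglia a.

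Genes of monocyte-derived macrophages were also mostly on the infiltrating side. Arg1 (chr10:24915221-24927484), the arginase of tissue macrophages and wound repair, had 8 UMIs in microglia and stood at 1670.3 and 822 CPM in infiltrating cells (log2 fold change 10.73 ± 2.30, adjusted p = 0.00323). In the gates as a whole its adjusted p was 0.0668. Ms4a7 was at 5.96 and 5.71 CPM in microglia against 379 and 376 (log2 fold change 6.01 ± 0.58, adjusted p = 7.21e-06). Fn1, fibronectin, was at 48.3 and 68.1 against 833 and 835 (log2 fold change 3.84 ± 0.66, adjusted p = 0.000692). The fatty acid carrier gene Fabp5 and the galectin gene Lgals3 were higher by 5.07 and 3.98 (log2), and vimentin (Vim) and Tgfbi by 4.67 and 5.98. Of 17 tested genes 16 were higher, beside 13.9% of all genes. The other, the tetraspanin gene Cd9, was lower, at 1661 and 1537 CPM in microglia and 478 and 616 in infiltrating cells. The median of the list was 5.07. Counted in the gates as a whole, 15 of the 17 were higher.

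Genes described for disease-associated microglia, a state seen around plaques and lesions, did not fall on 1 side. Of 18 tested, 2 were higher in infiltrating cells, 5 were lower and 11 did not pass, with a median of -0.65, beside 13.9% higher and 16% lower among all genes. Over all cells of each gate 1 was higher and 4 were lower, and without microglia b 1 was higher and 6 were lower. The 2 higher were Gpnmb and Clec7a. Gpnmb, a glycoprotein of lipid-loaded phagocytes (chr6:49036546-49070929), was at 8.64 and 40.8 CPM in microglia and 509 and 514 in infiltrating cells (log2 fold change 4.36 ± 0.67, adjusted p = 0.000306). Clec7a, the beta-glucan receptor, was higher by 1.51 (log2), with an adjusted p of 0.104 without microglia b. The 5 lower were Cst7, Csf1, Cd63, Cd9 and Ctsd. Cst7, an inhibitor of lysosomal proteases, stood at 528 and 514 CPM in microglia and 7.51 and 20.2 in infiltrating cells (log2 fold change -5.28 ± 1.07, adjusted p = 0.00226), without overlap. Ctsd, cathepsin D, was at 10119 and 8040.2 CPM against 2284 and 2935 (log2 fold change -1.80 ± 0.31, adjusted p = 0.000656). Csf1 was lower (log2 fold change -3.51), with an adjusted p of 0.0657 without infiltrating a. Apoe, at 9846 and 12757 CPM in microglia and 15886 and 31986 in infiltrating cells, did not pass the test (adjusted p = 0.19). Nor did Spp1, osteopontin, at 339 and 61.7 against 704 and 942 (adjusted p = 0.0679), where the microglial libraries lay far apart. Without microglia a, Spp1 passed, with a fold change of 3.73 (adjusted p = 0.0237).

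**Figure D2:**
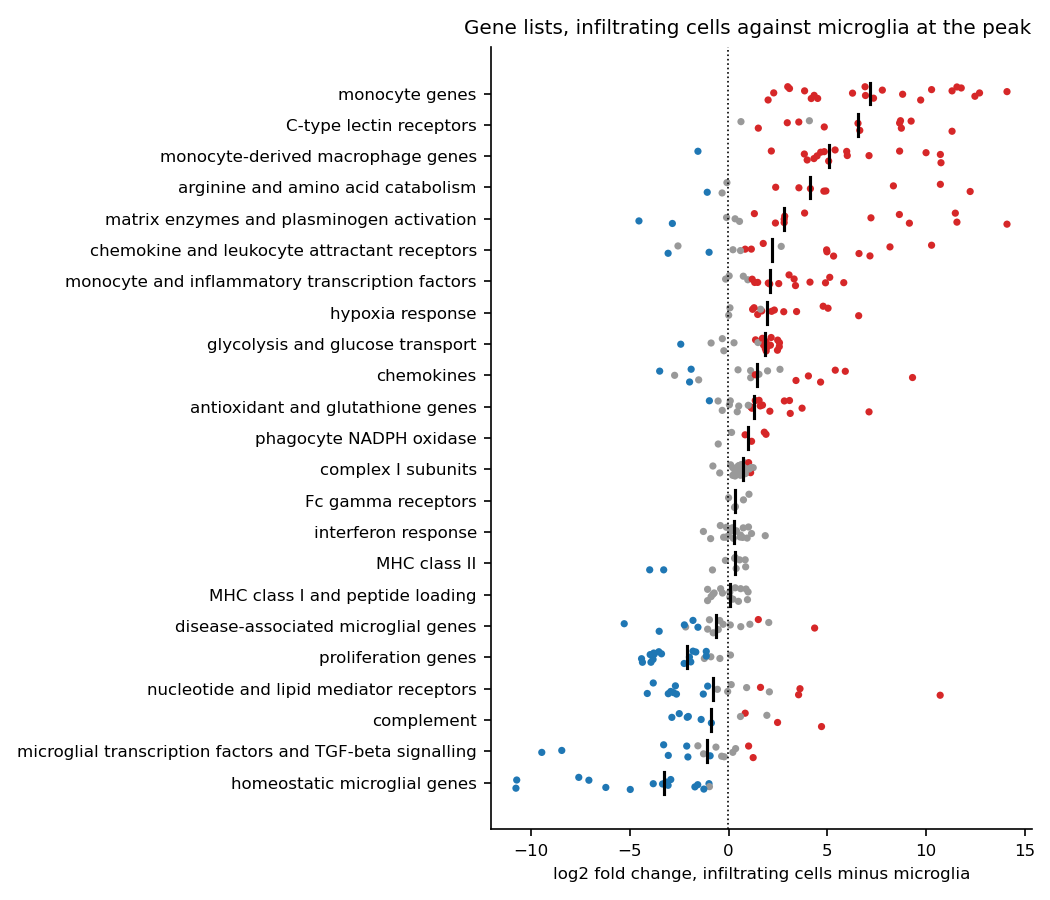
Log2 fold change of every tested member of 23 gene lists, infiltrating cells minus microglia (horizontal axis). Red points were higher and blue points lower at an adjusted p under 0.05, grey points did not pass, black bars are list medians and the dotted line is the median of all genes tested. Monocyte genes had a median of 7.14, homeostatic genes one of -3.26, and the interferon and MHC class I lists are grey throughout.

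Few genes of antigen presentation and none of the interferon response passed the test with all libraries. H2-Aa, an MHC class II chain, was at 2575 and 3087 CPM in microglia and 5519.8 and 4645 in infiltrating cells (adjusted p = 0.358), and H2-Ab1 at 3173 and 3896 and 4070.0 and 6355 (adjusted p = 0.423). Cd74, the invariant chain, was at 7866 and 11237 and 21489.9 and 13369.5 CPM (adjusted p = 0.422). Both infiltrating libraries were above both microglial ones in these 3 genes, by less than the test could separate from the spread between libraries. Of 10 tested class II genes the 2 that passed, beside 16% of all genes called lower, were H2-Oa and H2-Ob, which encode the modulator that restrains peptide loading, and both were lower in infiltrating cells. H2-Oa was at 175 and 195 CPM against 17.1 and 21.2 (log2 fold change -3.28 ± 0.67, adjusted p = 0.00235) and H2-Ob at 36.8 and 25.6 against 1.07 and 3.74 (log2 fold change -3.99 ± 0.53, adjusted p = 8.78e-05). Of 16 class I and peptide loading genes, 0 passed in edgeR, 3 had an unadjusted p under 0.05, and DESeq2 called 1. B2m, for example, stood at 6151 and 7341 CPM against 4931 and 5299. Without infiltrating b, 3 of the class I genes were higher and 1 lower in edgeR, and with library size scaling 2 were lower. Of 22 interferon response genes 0 passed in edgeR or DESeq2 with all libraries, and 0 had an unadjusted p under 0.05. In edgeR's fit over the 4 peak libraries alone 1 was higher and 1 lower, and with pool as a term 1 was higher. The medians of the class II, class I and interferon lists were 0.32, 0.07 and 0.28, beside -0.05 for all genes, and with library size scaling those of class I and interferon were -0.27 and -0.03 beside -0.36. Single members still differed between the 2 infiltrating libraries, as Irf7 did at 644 and 170.5 CPM against 101 and 124 in microglia. A missed threshold does not show that the groups were alike: the SE of 1.08 for Irf7 and 1.13 for Isg15 leaves room for sizeable differences either way.

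Cytokine genes split by member. Il1b (chr2:129364570-129371139), interleukin 1 beta, was at 36.2 and 7.78 CPM in microglia and 496 and 608 in infiltrating cells (log2 fold change 4.66 ± 0.86, adjusted p = 0.0012). The gene of its natural antagonist, Il1rn, stood at 5.55 and 4.60 against 203 and 225 (log2 fold change 5.40 ± 1.34, adjusted p = 0.00788), and its adjusted p was 0.0717 without microglia a and 0.0643 without microglia b. Vegfa and the T cell co-stimulator gene Tnfsf9 were higher by 5.04 and 3.33 (log2). Tnfsf13b, which encodes the B cell factor BAFF, was lower, at 102 and 138 CPM in microglia and 30.9 and 25.5 in infiltrating cells (log2 fold change -2.09 ± 0.39, adjusted p = 0.00116). Tnf, at 145 and 87.8 CPM against 35.6 and 91.6, did not pass (adjusted p = 0.284). In all, 5 of 18 tested cytokine genes were higher and 4 lower, beside 13.9% and 16% of all genes. The number lower was 1 without infiltrating a and 2 without microglia a, and the number higher was 3 without microglia a and also 3 without microglia b.

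Chemokine genes lay on both sides. Ccl6 was at 36.2 and 34.1 CPM in microglia and 1218 and 561 in infiltrating cells (log2 fold change 4.66 ± 1.04, adjusted p = 0.0041), Ccl9 at 19.7 and 10.3 and 114 and 206, and Pf4 at 0.411 and 0.317 and 23.4 and 21.7. Cxcl16, the membrane-bound ligand of CXCR6, was higher by 1.35 (log2), with an adjusted p of 0.0548 without microglia b. On the microglial side Ccl12 stood at 1001 and 1002 CPM against 53.2 and 127 (log2 fold change -3.49 ± 0.83, adjusted p = 0.0063), and Ccl3 and Ccl4 were lower (log2 fold change -1.97 and -1.89). None of these 3 passed without infiltrating a, where the adjusted p was 0.0789, 0.233 and 0.126, and Ccl3 and Ccl4 did not pass without microglia a either (0.294 and 0.255). Ccl2, the ligand of CCR2, was at 1530.3 and 880.1 CPM in microglia and 133 and 231 in infiltrating cells, without overlap, and did not pass (adjusted p = 0.108). Of 18 chemokines tested 7 were higher and 3 lower, beside 13.9% higher and 16% lower among all genes. Without infiltrating a 9 were higher and 0 lower, without microglia a 5 and 1, and without microglia b 4 and 3. The T cell attractants Ccl5 and Cxcl10 did not pass with all libraries, at adjusted p = 0.157 and 0.744.

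The receptors that answer such signals were mostly on the infiltrating side, with 10 of 16 tested higher and 2, Cx3cr1 and C5ar2, lower. Among all genes 13.9% were higher and 16% lower. Ccr1 stood at 3.50 and 3.49 CPM in microglia and 481 and 202 in infiltrating cells (log2 fold change 6.61 ± 1.05, adjusted p = 0.000374). Cxcr4, which holds cells in the marrow, was at 2.06 and 3.17 against 61.2 and 107 (log2 fold change 4.97 ± 0.46, adjusted p = 5.61e-06). The formyl peptide receptor gene Fpr2 and the leukotriene B4 receptor gene Ltb4r1 were higher by 4.98 and 7.16 (log2). Microglia held under 4 CPM of each of these 4 genes. C5ar2 was lower (log2 fold change -0.98), with an adjusted p of 0.0755 without infiltrating a and 0.056 without microglia b. No receptor gene was called lower without infiltrating a, without microglia b or over all cells of each gate, and 1 was without microglia a.

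Integrin chains differed in both directions. Itga4, the alpha 4 chain that binds VCAM1 on inflamed vessels, was at 9.25 and 7.46 CPM in microglia and 129 and 175 in infiltrating cells (log2 fold change 4.19 ± 0.42, adjusted p = 9.76e-06). Its partner chain gene Itgb7 stood at 7.40 and 18.1 against 242 and 91.1 (log2 fold change 3.70 ± 0.70, adjusted p = 0.00145). In the other direction Itgb5 was at 748 and 638 CPM in microglia and 216 and 234 in infiltrating cells (log2 fold change -1.62 ± 0.37, adjusted p = 0.00485), and Itgb3 had 67 UMIs in microglia and 1 in infiltrating cells, a ratio of 119 (exact 95% interval 20.7 to 4774). Counting every cell of each gate the adjusted p of Itgb3 was 0.0772. Cd44, the hyaluronan receptor, was higher by 2.00 (log2), and Selplg, a leukocyte adhesion glycoprotein, lower (log2 fold change -1.56) with an adjusted p of 0.0721 over all cells of each gate. Of 18 adhesion genes tested 5 were higher and 6 lower, beside 13.9% and 16% of all genes, with a median of -0.05. The number lower was 3 without infiltrating a, 4 without microglia a and 8 without infiltrating b.

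Genes that act on the matrix and on coagulation were mostly higher in infiltrating cells. Mmp8, a collagenase, had 2 UMIs in microglia and stood at 183 and 36.4 CPM in infiltrating cells, a ratio of 857 (exact 95% interval 237 to 7079). Mmp12, an elastase, had 2 UMIs in microglia and stood at 111 and 45.9 CPM, a ratio of 546 (exact 95% interval 151 to 4509). Both proteases were nearly undetected in microglia. F13a1, the A chain of clotting factor XIII, had 0 UMIs in microglia and 5973 in infiltrating cells, at least 1120-fold more. F7 also had 0 in microglia and was at least 176-fold higher, with an adjusted p of 0.0512 over all cells of each gate. F10 had 2 UMIs in microglia and 14167 in infiltrating cells, a ratio of 3984 (exact 95% interval 1103 to 32904). Among the member cells of the 4 libraries these 3 genes of coagulation were thus detected almost only on the infiltrating side. With every cell of each gate counted, the log2 fold changes of F13a1, F7 and F10 were 6.84, 7.24 and 7.96. The receptor of urokinase, Plaur, was at 26.5 and 26.8 CPM against 253 and 123 (log2 fold change 2.82 ± 0.59, adjusted p = 0.00289). Of 17 tested genes 12 were higher, beside 13.9% of all genes, with a median of 2.82. Without microglia a 7 were higher, without microglia b also 7, and over all cells of each gate 7 of 18. The 2 lower, beside 16% of all genes called lower, were Timp2, a metalloproteinase inhibitor, and the protease gene Adamts1. Timp2 stood at 725 and 619 CPM in microglia and 78.7 and 109 in infiltrating cells (log2 fold change -2.84 ± 0.51, adjusted p = 0.000952).

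Genes of arginine metabolism were also mostly higher in infiltrating cells, where 13.9% of all genes were higher and 16% lower. Beside Arg1, the mitochondrial arginase gene Arg2 had 0 UMIs in microglia and 1975 in infiltrating cells, at least 370-fold more. Nos2, the inducible nitric oxide synthase that competes with arginase for arginine, was at 0.822 and 2.70 CPM in microglia and 52.9 and 60.1 in infiltrating cells (log2 fold change 4.93 ± 0.71, adjusted p = 0.000167). Ass1, which rebuilds arginine from citrulline, stood at 35.4 and 36.5 against 914 and 359 (log2 fold change 4.15 ± 0.74, adjusted p = 0.000899), and Slc7a2, the arginine importer, at 0 and 0.635 against 65.8 and 177 (log2 fold change 8.35 ± 0.82, adjusted p = 8.24e-06). Thus both the genes that consume arginine and those that supply it were higher in the same libraries. The cystine importer gene Slc7a11 and Kynu, of tryptophan breakdown, were higher by 4.83 and 3.56 (log2). Acod1, which makes itaconate, was higher by 2.39 (log2), but passed in none of the fits with 1 library left out, where the adjusted p ran from 0.064 to 0.178, nor with library size scaling (0.0625). In all 8 of 11 genes were higher, with a median of 4.15, and 1, the polyamine acetylase gene Sat1, was lower, with adjusted p from 0.055 to 0.219 when 1 library was left out.

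Reactive oxygen species can come from the NADPH oxidase of phagocytes or from mitochondria. Cybb, the catalytic subunit of the oxidase (chrX:9435252-9487771), was at 372 and 261 CPM in microglia and 886 and 1338 in infiltrating cells (log2 fold change 1.81 ± 0.47, adjusted p = 0.00967), and its adjusted p was 0.0791 without microglia b. Ncf4 stood at 51.6 and 77.1 against 322 and 158 (log2 fold change 1.90 ± 0.36, adjusted p = 0.0013), while Ncf1, at 367 and 277 against 189 and 261, did not pass. Cyba, the membrane partner of Cybb, was higher by 1.17 (log2), with an adjusted p of 0.316 without infiltrating a, 0.219 without microglia a and 0.0594 without microglia b. So 4 of 6 tested oxidase genes were higher, and 2 of 6 without infiltrating a, without microglia a or without microglia b. Genes that remove such species were higher too, 12 of 20 with 1 lower and a median of 1.27. Among all genes 13.9% were higher and 16% lower. Sod2, the superoxide dismutase of mitochondria, was at 77.9 and 116 CPM in microglia and 989 and 702 in infiltrating cells (log2 fold change 3.13 ± 0.49, adjusted p = 0.000372). The peroxiredoxin gene Prdx5 stood at 449 and 755 against 5274 and 3273 (log2 fold change 2.83 ± 0.51, adjusted p = 0.00101), and Prdx6, Gsr and Mgst1 were higher by 3.72, 3.09 and 7.11 (log2). Without infiltrating a, 8 of the 20 were higher and the median was 0.90, and without microglia a 6 were higher with a median of 1.05.

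Subunits of complex I, the site of reverse electron transport, differed by small amounts, and the number called changed with the library left out. The 37 tested nuclear subunit genes had a median fold change of 0.73 and 4 passed, a share below the 13.9% of all genes called higher: Ndufb3, Ndufb7, Ndufb9 and Ndufs7, higher by 0.83, 1.02, 0.95 and 1.12 (log2). Ndufb7, for example, stood at 104 and 175 CPM in microglia and 351 and 215 in infiltrating cells. Infiltrating b lay nearer to microglia b than to infiltrating a in this gene. Without infiltrating a, 0 of 37 passed and the median was 0.29. Without infiltrating b, 16 passed and the median was 0.94. Without microglia a, 1 passed, lower, with a median of 0.42, and without microglia b, 8 passed, higher, with a median of 1.06. Ndufb3, Ndufb7, Ndufb9 and Ndufs7 each missed the threshold without infiltrating a, at adjusted p = 0.0814, 0.249, 0.307 and 0.544, and without microglia a, at 0.228, 0.228, 0.288 and 0.339. With all libraries 16 had an unadjusted p under 0.05 and DESeq2 called 12. In edgeR's fit over the 4 peak libraries alone 0 of 37 passed, with a median of 0.72. The fit with sequencing pool as a term gave 2 higher and 1 lower with a median of 0.40, with Ndufb7, Ndufb9 and Ndufs7 at adjusted p = 0.0715, 0.0512 and 0.133, and library size scaling gave 1 higher and 1 lower with a median of 0.42. Within the pair of 1 batch date 0 passed and the median was 0.67. Of the 4 complex II genes 0 passed in edgeR or DESeq2 with all libraries, 0 had an unadjusted p under 0.05, and 1 was higher without microglia b. Subunits that mitochondria encode were not among the measured features, and the activity of the complex was not measured.

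Genes of glycolysis and of the response to low oxygen were mostly higher in infiltrating cells. Of 19 genes of glycolysis and glucose transport 13 were higher, 1 was lower and the median was 1.86. Among all genes 13.9% were higher and 16% lower. Slc2a1, the glucose transporter GLUT1, was at 39.9 and 42.1 CPM in microglia and 189 and 128 in infiltrating cells (log2 fold change 1.96 ± 0.38, adjusted p = 0.00178). Tpi1 stood at 183 and 168 against 1224 and 749 (log2 fold change 2.49 ± 0.42, adjusted p = 0.000574), Pgk1 at 109.6 and 136 against 929 and 441 (log2 fold change 2.48 ± 0.52, adjusted p = 0.00288), and the lactate exporter gene Slc16a3 at 57.8 and 40.6 against 300.2 and 138 (log2 fold change 2.16 ± 0.38, adjusted p = 0.000905). In each the infiltrating libraries were above the microglial ones, and infiltrating a was above infiltrating b. Hk1, Pfkp and Pgam1 were higher by 2.58, 2.57 and 2.12 (log2). Ldha was higher by 1.91 (log2), with an adjusted p of 0.129 without infiltrating a and 0.0983 without microglia a. Gapdh, at 921 and 1676 against 5610.2 and 1695, did not pass (adjusted p = 0.0942), and neither did Hk2. The 1 lower gene was Slc2a3, with 39 UMIs in microglia and 11 in infiltrating cells, whose adjusted p was 0.23 without infiltrating a, 0.0532 without microglia b and 0.0571 with pool as a term. With all cells of each gate its direction turned. Without infiltrating a, 7 of the 19 glycolysis genes were higher and the median was 1.05, and without microglia a, 7 were higher. In the pair of 1 batch date, with 1 library on each side, fewer of the 19 passed, as did fewer genes in all.

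In the hypoxia list 11 of 14 tested genes were higher, beside 13.9% of all genes. None of the others passed and the median was 1.93. Egln3, an oxygen-sensing prolyl hydroxylase that is itself induced by low oxygen (chr12:54178981-54203860), was at 1.85 and 0.952 CPM in microglia and 48.8 and 26.7 in infiltrating cells (log2 fold change 4.79 ± 0.48, adjusted p = 1e-05). The mitophagy gene Bnip3 stood at 23.9 and 17.9 against 201 and 88.1 (log2 fold change 2.80 ± 0.42, adjusted p = 0.000243) and Ankrd37 at 6.37 and 3.97 against 73.3 and 37.4 (log2 fold change 3.45 ± 0.51, adjusted p = 0.000214). Ndrg1 had 2 UMIs in microglia and 436 in infiltrating cells, a ratio of 123 (exact 95% interval 33.7 to 1016). Hif1a, the oxygen-regulated factor itself, was at 148 and 96.7 against 319 and 361 (log2 fold change 1.48 ± 0.39, adjusted p = 0.011), with an adjusted p of 0.0933 without microglia b. Egln1 was higher by 2.18 (log2) and Bnip3l by 1.68, and the adjusted p of Bnip3l was 0.0621 without infiltrating a. With that library left out 7 of 14 were higher and the median was 1.58.

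HIF factors bind the core letters ACGTG, which also lie inside the E-box CACGTG that other factors bind. These letters were searched on both strands in RefSeq promoter windows of 300 bases, 250 before and 50 after the gene start (build GRCm38.p6). Among the higher hypoxia genes 8 had a window and 6 of these held the letters, and among the higher glycolysis genes 5 of 13 did. The share was 26.0% of 9148 windows of tested genes and 19.7% of all 27025 windows. Windows of hypoxia genes that were not called were not counted. The ETS core GAGGAA and the AP-1 letters TGACTCA were also searched. GAGGAA lay in 4 of the 8 hypoxia and 2 of the 13 glycolysis windows, beside 26.8% of tested genes. TGACTCA lay in 0 of each, beside 3.41%. A match is a description of the sequence and not a sign of binding. The windows of Egln3 (chr12:54203825-54204124, minus strand), Bnip3 (chr7:138909457-138909756, minus strand) and Pgk1 (chrX:106186850-106187149, plus strand) are shown 5′ to 3′. These genes stand for the oxygen sensor, the mitophagy gene and the glycolytic enzyme described above. Only ACGTG matches, on either strand, are in capitals. The 2 ACGTG matches of Bnip3, 1 on each strand, overlap in CACGTG.
Egln3: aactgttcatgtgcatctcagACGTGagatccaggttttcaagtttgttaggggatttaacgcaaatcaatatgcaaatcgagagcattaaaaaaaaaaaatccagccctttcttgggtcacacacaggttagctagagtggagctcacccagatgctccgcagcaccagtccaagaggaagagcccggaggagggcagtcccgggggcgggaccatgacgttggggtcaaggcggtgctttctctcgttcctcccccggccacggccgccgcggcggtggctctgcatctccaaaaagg
Bnip3: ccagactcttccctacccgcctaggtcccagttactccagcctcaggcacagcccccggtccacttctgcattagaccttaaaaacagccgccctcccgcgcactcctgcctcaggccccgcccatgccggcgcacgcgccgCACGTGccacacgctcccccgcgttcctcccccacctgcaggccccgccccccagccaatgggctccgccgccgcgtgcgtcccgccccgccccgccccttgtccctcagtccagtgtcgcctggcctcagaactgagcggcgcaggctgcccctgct
Pgk1: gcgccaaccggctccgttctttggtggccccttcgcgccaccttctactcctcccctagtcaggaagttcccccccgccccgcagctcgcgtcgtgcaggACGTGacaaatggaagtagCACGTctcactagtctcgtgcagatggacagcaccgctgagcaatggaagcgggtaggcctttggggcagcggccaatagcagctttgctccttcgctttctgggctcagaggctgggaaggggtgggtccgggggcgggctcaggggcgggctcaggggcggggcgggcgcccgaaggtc

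**Figure D3:**
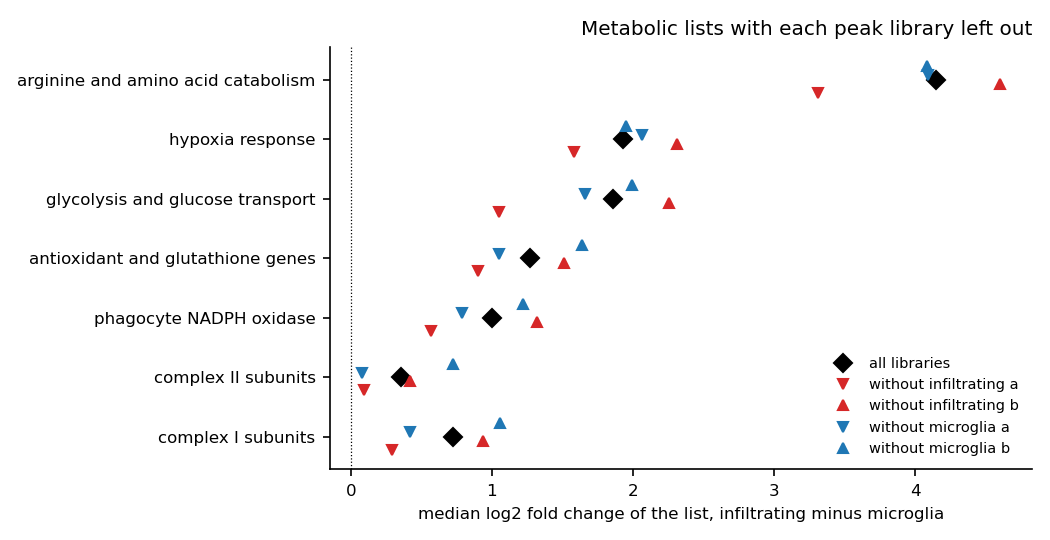
Median log2 fold change, infiltrating minus microglia, of 7 metabolic gene lists (horizontal axis) with all libraries (black diamonds) and with 1 peak library left out (triangles, red for an infiltrating and blue for a microglial library). The complex I median lies between 0.29 and 1.06, and the glycolysis median between 1.05 and 2.26.

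Receptors for microbes and debris divided by family. C-type lectin receptors were mostly higher in infiltrating cells, with 11 of 13 higher, beside 13.9% of all genes. Their median was 6.56, or 4.85 with genes at 0 UMIs in microglia set to their lower bound. Clec4e, the receptor Mincle, had 1 UMI in microglia and 5629 in infiltrating cells, at 294 and 244 CPM, a ratio of 3166 (exact 95% interval 568 to 125083). With every cell of each gate counted, its log2 fold change was 6.86. Clec4n, which encodes dectin 2, stood at 0.411 and 0.317 CPM in microglia and 271 and 184 in infiltrating cells (log2 fold change 9.25 ± 0.94, adjusted p = 1.04e-05), and Clec12a at 1.23 and 0.317 against 308 and 296 (log2 fold change 8.66 ± 0.66, adjusted p = 9.85e-07). Toll-like receptors showed no common direction, 4 of 13 higher and 3 lower, beside 13.9% and 16% of all genes. Tlr3, a sensor of double-stranded RNA, was at 46.9 and 50.2 CPM in microglia and 9.53 and 9.98 in infiltrating cells (log2 fold change -2.32 ± 0.35, adjusted p = 0.000261). Tlr7, a sensor of single-stranded RNA, was lower as well, at 64.4 and 58.1 against 24.7 and 26.5 (log2 fold change -1.26 ± 0.26, adjusted p = 0.00249). Tlr8, its close relative, went the other way, with 2 UMIs in microglia and 273 in infiltrating cells, a ratio of 76.8 (exact 95% interval 21.1 to 637). Cd14 was at 82.0 and 57.9 against 301 and 221 (log2 fold change 1.90 ± 0.34, adjusted p = 0.000953). Of 5 Fc gamma receptor genes 0 passed in edgeR, while DESeq2 called 2 higher, 2 had an unadjusted p under 0.05, and edgeR called 1 higher without infiltrating b.

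The genes of C1q, which starts the classical complement pathway, were lower in infiltrating cells. C1qa, C1qb and C1qc encode its chains (log2 fold change -2.49, -1.39 and -2.09), and C1qa stood at 11641 and 13736 CPM in microglia and 1954 and 2548 in infiltrating cells (log2 fold change -2.49 ± 0.47, adjusted p = 0.00129). C3 was higher in infiltrating cells, at 73.6 and 46.3 against 233 and 438 (log2 fold change 2.48 ± 0.64, adjusted p = 0.0101), with an adjusted p of 0.0822 without microglia b, and properdin (Cfp) at 3.91 and 4.76 against 153 and 74.9 (log2 fold change 4.71 ± 0.63, adjusted p = 9.25e-05). Of 11 complement genes tested, 6 were lower and 3 higher, beside 16% and 13.9% of all genes. Without microglia b 5 were lower and 1 was higher.

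Of 24 lipid handling genes 6 were higher and 3 lower, beside 13.9% and 16% of all genes. The lipid droplet coat gene Plin2 was at 43.0 and 62.4 CPM in microglia and 393 and 214 in infiltrating cells (log2 fold change 2.53 ± 0.38, adjusted p = 0.000228), and the scavenger receptor gene Msr1 at 13.4 and 10.6 against 109.8 and 137 (log2 fold change 3.36 ± 0.55, adjusted p = 0.000503). Cd36, another scavenger receptor, went the other way, at 259.7 and 230.1 against 1.52 and 7.99 (log2 fold change -5.95 ± 0.76, adjusted p = 6.48e-05). Receptors and enzymes of nucleotide and lipid mediators were more often higher in microglia, with 9 of 18 lower in infiltrating cells and 4 higher. The adenosine receptors were opposed: Adora3 stood at 67.0 and 87.8 CPM in microglia and 14.01 and 3.24 in infiltrating cells (log2 fold change -3.05 ± 0.49, adjusted p = 0.000415), while Adora2b had 0 UMIs in microglia and 582 in infiltrating cells, at least 109-fold more. In prostaglandin synthesis Ptgs1 and Hpgds were lower (log2 fold change -2.79 and -2.63), and Ptges and the receptor gene Ptger2 were higher by 3.62 and 3.55 (log2). Alox5 was lower, at 4.93 and 6.35 CPM against 0.253 and 0.499 (log2 fold change -4.11 ± 0.51, adjusted p = 5.01e-05).

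Proliferation genes were higher in peak microglia, where the 20 genes summed to 702 and 840 CPM against 159 and 156. In infiltrating cells 16 of 20 were lower, beside 16% of all genes, with a median of -2.11. Top2a stood at 67.6 and 61.4 CPM in microglia and 4.798 and 2.99 in infiltrating cells (log2 fold change -3.97 ± 0.58, adjusted p = 0.000196), Stmn1 at 102 and 183 against 18.7 and 7.24 (log2 fold change -3.39 ± 0.54, adjusted p = 0.000367), and Cdk1, Ccnb1 and Birc5 were lower (log2 fold change -3.79, -4.36 and -4.40). Deposited cluster 2 held 35 of 486 and 57 of 704 microglia, and without its cells 9 of 20 were lower with a median of -1.57. With 1 library left out, 9 were lower without microglia b (median -2.10), 11 without infiltrating b (median -2.05), 12 without infiltrating a and 13 without microglia a. In the gates as a whole 2 of 20 were lower, with a median of -0.87, and the adjusted p was 0.108 for Top2a, 0.128 for Stmn1 and 0.1 for Birc5.

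The infiltrating side was itself made of 2 classes, with 1023 and 177 monocytes and 686 and 180 macrophages in libraries a and b. Class levels are given as a description, as CPM of the class total without TMM scaling, so values for microglia differ from those given above for the same genes. Ccr2 was at 636 and 914 CPM in monocytes and 22.1 and 14.5 CPM in macrophages. A Ccr2 UMI was found in 99.8% and 97.2% of monocytes and in 27.3% and 17.8% of macrophages, which describes the labels, since classes rest on such genes. After thinning every cell to 2000 UMIs, with 1 or 8 cells of a class in library a and 1 or 3 in library b left out, the shares were 67.0% and 77.3% of monocytes and 6.05% and 1.69% of macrophages. T cells of the same libraries, a median of 7258 and 7022 UMIs deep against 11147 and 10611 in monocytes, had it in 19.4% and 51.1% after thinning, and T cells can express Ccr2 themselves. Plac8 and Il1b were also higher in monocytes of both libraries. Plac8, for instance, stood at 3925 and 2795 CPM in monocytes and 901 and 509 in macrophages. Ly6c2 and Chil3 were common in both classes. After thinning, Ly6c2 was found in 65.9% and 62.5% of monocytes and in 58.6% and 48.6% of macrophages. Chil3 was found in 83.8% and 63.1% of thinned monocytes and in 82.0% and 58.8% of thinned macrophages.

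Gpnmb ran the other way, at 73.0 and 109.9 CPM in monocytes and 850.1 and 836 in macrophages. It was found in 6.85% and 9.09% of thinned monocytes (19.8% and 20.3% unthinned) and in 46.3% and 44.6% of thinned macrophages (64.0% and 70.0% unthinned). In T cells of library a, where it should be lacking, the thinned share was 1.44%. Fabp5 was at 389 and 326 CPM in monocytes and 3951 and 2195 in macrophages. Spp1, Ms4a7 and Cd63 had the same order in both libraries. Apoe stood at 9318 and 14326 CPM in monocytes, 16744 and 45262 in macrophages and 11412 and 12693 in microglia. Arg1 was higher in macrophages of library a, at 1934 against 855 CPM, but the classes of library b were close, at 859.6 and 703.

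C1qa lay between the other classes in macrophages. It was at 1141 and 1300.2 CPM in monocytes, 2067 and 3462 in macrophages and 13492 and 13668 in microglia. T cells of the infiltrating libraries held 40.8 and 9.16 CPM, well under the monocytes. Tmem119, by contrast, was at 16.2 and 27.7 CPM in infiltrating macrophages and 591 and 623 in microglia. The resident gate also held 30 and 20 cells of the class Macrophage, which are not members. These carried Tmem119 at 572 and 373 CPM and Sparc at 744 and 703 CPM, so the class label did not match the microglial markers there.

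**Figure D4:**
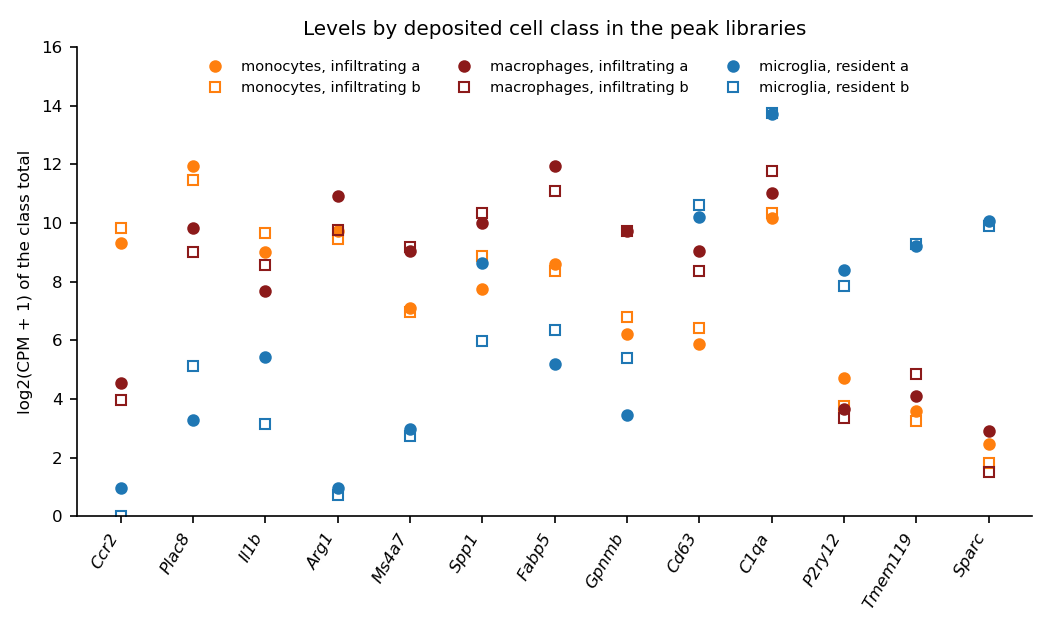
Level of 13 genes by deposited class in each peak library, as log2(CPM + 1) of the class total (vertical axis). Orange is monocytes, dark red macrophages of the infiltrating gate and blue microglia, with circles for library a and squares for library b. Ccr2 and Plac8 are highest in monocytes, Gpnmb and Fabp5 in macrophages, and C1qa, Tmem119 and Sparc in microglia.

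The gap between infiltrating cells and microglia was then compared with the same gap in chronic EAE, as a contrast of contrasts in the same fit. Of 11479 genes 5 differed (0.0436%), all with a wider gap in favour of infiltrating cells at the peak. Myof (chr19:37899036-38043577) was at 0.411 and 0.476 CPM in peak microglia and 13.1, 17.8 and 13.04 in chronic microglia, and at 132 and 193 CPM in peak and 180.4, 186 and 105 in chronic infiltrating cells. Its peak gap exceeded the chronic one, with a log2 difference of 5.02 ± 0.64 (SE; adjusted p = 0.0178). Egln3 stood at 1.85 and 0.952 CPM in peak and 7.52, 8.63 and 13.4 in chronic microglia, against 48.8 and 26.7 and 12.2, 12.7 and 18.6 in infiltrating cells, a difference of gaps of 4.28 ± 0.58 (SE; adjusted p = 0.0179). In both genes chronic microglia lay above every peak and control microglial library, and for Egln3 the infiltrating cells were also higher at the peak. Crip1 (chr12:113146316-113153879), with a difference of 2.85 ± 0.45 (SE; adjusted p = 0.0445), was at 115, 90.3 and 89.7 CPM in chronic microglia and 15.95, 7.15 and 12.4 in controls. Prnp (chr2:131909928-131938429), the prion protein gene, differed by 2.54 ± 0.41 (SE; adjusted p = 0.0445) and stood at 2.47 and 3.02 CPM in peak and 13.4, 15.4 and 11.6 in chronic microglia. Cd14 (chr18:36725067-36726798), the co-receptor for lipopolysaccharide, differed by 2.74 ± 0.43 (SE; adjusted p = 0.0445). It was at 82.0 and 57.9 CPM in peak microglia, 319, 364 and 432 in chronic and 503, 339 and 446 in control microglia, and at 249, 143 and 231 CPM in chronic infiltrating cells. Infiltrating cells were thus above microglia in Cd14 at the peak and below them in chronic EAE. All 5 kept their direction with each of the 10 peak and chronic libraries left out in turn. Myof passed in 8 of these 10 fits, Egln3 in 7, Prnp in 4, and Crip1 and Cd14 in 2 each, and without peak microglia b none of the 5 passed, at an adjusted p of 0.342 for each. The number of genes called was 0 without peak microglia b, 1 without peak microglia a or peak infiltrating a, 13 without peak infiltrating b and 28 without chronic infiltrating a. It was 2 without chronic microglia a or b and 3 without chronic infiltrating c. Counting every cell of each gate Egln3 alone passed (adjusted p = 0.0491). No sequencing pool held both stages, although controls shared pools with each. The difference of gaps was not fitted with pool as a term, so the part of pool in it was not tested.

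**Figure D5:**
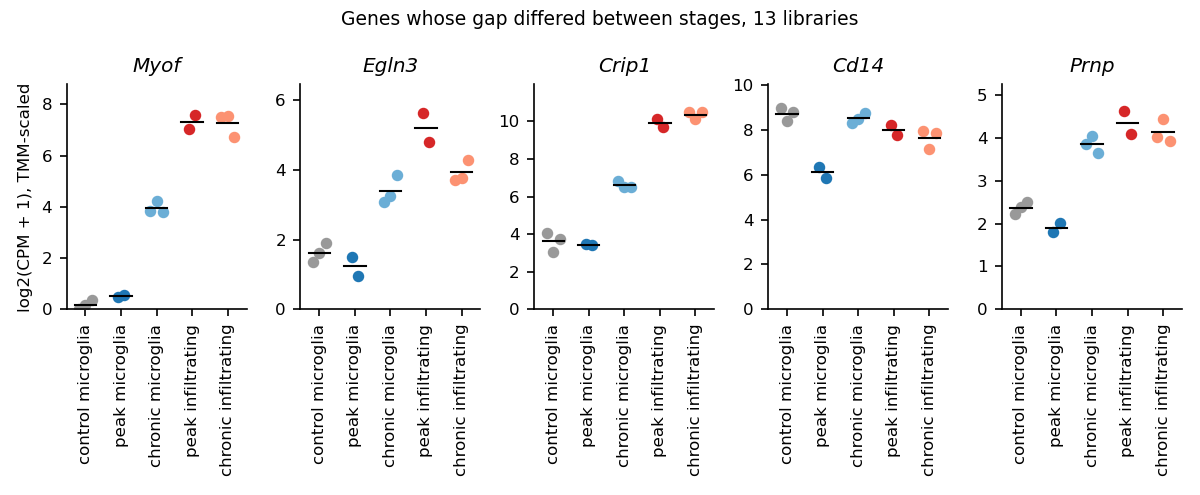
Level of the 5 genes whose gap differed between stages, as log2(CPM + 1) after TMM scaling (vertical axis), in all 13 libraries. Points are libraries and bars are group means. Peak microglia are the lowest or near the lowest group in each panel, and chronic microglia stand above them in all 5.

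Markers of other cell types were also summed over the member cells, as CPM of the library total without TMM scaling. The 5 measured T cell markers summed to 3.098 and 1.26 CPM in microglia and 15.6 and 14.8 CPM in infiltrating cells, and 2 of the 4 tested were higher there. Beside this and the other marker counts here, 13.9% of all genes were higher and 16% lower. Cd3g had 1 UMI in microglia and 159 in infiltrating cells, a ratio of 89.4 (exact 95% interval 15.8 to 3554). The dendritic cell genes Flt3 and Clec9a had 0 UMIs in microglia and 43 and 46 in infiltrating cells, at least 8.06-fold and 8.62-fold more, and the adjusted p of Flt3 was 0.0664 without infiltrating a. Of the neutrophil genes S100a8 was at 0.822 and 1.90 CPM in microglia and 214 and 71.6 in infiltrating cells. Its adjusted p was 0.0601 over all cells of each gate. Of 5 neutrophil genes tested 3 were higher, 1 was lower and 1 did not pass. The 11 dendritic cell genes summed to 421 and 343 CPM in microglia and 18.2 and 46.3 in infiltrating cells, with 3 of 9 tested higher and 3 lower. Most of the microglial sum was Siglech, described above as a microglial gene. The 10 border macrophage genes summed to 151 and 85.4 against 639 and 789 CPM, with 4 of 7 higher, and most of the infiltrating sum was Ms4a7 and F13a1, which are also named above among the genes of infiltrating cells. The 10 neutrophil genes, at 349 and 162 against 411 and 210.1 CPM, overlapped in their sum. The 7 astrocyte genes summed to 237 and 155 against 22.02 and 24.6 CPM, and most of the microglial sum was Slc1a3. By gene, 5 of these 7 were higher in infiltrating cells and 2 lower. Of 7 oligodendrocyte genes 3 were higher and 1 lower. Of 3 tested neuron genes 2 were higher and 0 lower, as were 2 and 0 of 3 endothelial genes. Single astrocyte genes went both ways, with Gfap at 0.822 and 0.317 against 12.6 and 9.73 CPM and Slc1a3 at 195 and 144 against 0.568 and 0. The border macrophage markers Lyve1 and Cd163 and the B cell marker Cd79a had 0 UMIs in all 4 libraries. The 19 genes that dissociation can induce summed to 3492 and 2060.5 CPM in microglia and 2605 and 3500.5 in infiltrating cells, ranges that overlap. Of these 19, 6 were called higher, beside 13.9% of all genes, with a median of 0.74. Without microglia b 2 were higher, without infiltrating b 5 were higher and 3 lower, and with pool as a term 9 were higher. The part of these markers in the gene lists above was not tested.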

How the data were processed

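Live cells from spinal cord were dissociated in the cold, sorted by reporter and sequenced as 10x libraries, per the labels' protocols. The submitters' processing notes name Cell Ranger 3.1.0, R 4.1.3 and the build GRCm38. The authors deposited raw UMI counts for 22598 features in 22148 cells, with a table of each cell's library, sort gate, class and cluster, its log10 totals of UMIs and genes, and its mitochondrial percent, at most 5.00. The member list and the gene lists were chosen with earlier results of these data known.

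Deposited UMI counts of member cells were summed per library, 13 libraries in 5 groups. The test was edgeR 4.0.16 (R 4.3.3) with TMM scaling, filterByExpr, 1 mean per group and a quasi-likelihood F test with 8 residual degrees of freedom. Benjamini-Hochberg adjustment ran over all 11479 genes tested, with calls at an adjusted p under 0.05. The SE is the size of the log2 fold change over the square root of F. Library names match no sample title, so each library's group came from the gate and stage columns of the cell table. Letters follow library names and do not pair libraries, and p-values measure only the spread between libraries. That spread was pooled over all 13 libraries, control and chronic ones included, and is not that of the peak libraries alone. Named genes are list members and, in each direction, the 12 genes of smallest p whose log2 fold change reached 1 in size, whose average log2 CPM reached 5 and whose groups did not overlap. Tests on simulated data for this contrast, with 200 of 11134 genes changed, recovered 28% of genes changed by 1 on the log2 scale. They recovered 97% of those changed by 2, with 6 false calls. The simulation gave every library the same mean profile apart from the changed genes, which were drawn among better expressed ones. It had no pool effect or shift of composition, and its spread followed expression level alone. These rates therefore do not describe the real contrast, where far more genes were called. The alternatives were DESeq2 1.42.0, other scaling and filters, libraries left out, pool as a term, all cells of a gate, single classes, and sums thinned to 4193141 UMIs. Intervals cover counting error only. Promoter windows came from RefSeq. Deposited doublet calls were used as given, and no doublet caller was run. Some listed genes are not reported here by name.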

Additional observations from a re-analysis of the deposited data

Results flagged for a closer look

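For 5 genes the gap between infiltrating cells and microglia differed between the peak and chronic EAE, by the test of that difference in edgeR. The difference of gaps, peak minus chronic, was 5.02 on the log2 scale for Myof, 4.28 for Egln3, 2.85 for Crip1, 2.74 for Cd14 and 2.54 for Prnp. With 1 of 10 libraries left out the value ranged from 4.73 to 5.26 for Myof and from 3.77 to 4.81 for Egln3. Over the same fits it ranged from 2.63 to 3.06 for Crip1, from 2.50 to 3.03 for Cd14 and from 2.20 to 2.79 for Prnp. The adjusted p went as low as 0.0107 for Myof, 0.0132 for Egln3, 0.0233 for Crip1, 0.0173 for Cd14 and 0.0365 for Prnp, and as high as 0.342 for each. Over all cells of each gate the adjusted p was 0.189 for Myof and Cd14, 0.165 for Prnp and 0.422 for Crip1. No sequencing pool held both disease stages, and the part of pool in these differences was not tested.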

How the results depend on the processing

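Of 171 called genes named above, 142 passed with each peak library left out in turn and 29 missed the threshold in 1 or more of those fits. Over all cells of each gate 140 passed, with pool as a term 165 and with library size scaling 166. In the pair of 1 batch date, chosen after seeing the data, 114 of the 171 passed and 57 did not, among them Arg1, Hif1a, C1qa, Cd14 and Cybb. DESeq2 called 170 of them and missed Acod1. The direction of 1 turned: Slc2a3 had a log2 fold change of 0.19 over all cells of each gate. The 1600 genes higher became 1057 with library size scaling, 1058 in a fit over the 4 peak libraries alone and 470 in the pair of 1 batch date. With 1 peak library left out they ranged from 785 to 2023. The 1834 genes lower became 1117 over all cells of each gate and 547 in that pair, and ranged from 861 to 2073 with 1 library left out. The 5 genes whose gap differed between stages became 1 over all cells of each gate and ranged from 0 to 28 with 1 peak or chronic library left out. The cause of these changes was not tested. Fits that leave libraries out also rest on fewer libraries. Each peak group held 1 library in the pair of 1 batch date, so the spread there came from control and chronic libraries alone. Leaving out cells of the most UMIs, or of cluster 2, also chosen after seeing the data, gave 1532 and 1610 higher and 1747 and 1766 lower. No paired analysis was possible because the table of cells carries no replicate numbers. Genes with few UMIs, such as Slc2a3 and Itgb3, are limited by depth.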
